A study of Mus musculus with 2 samples.

Results

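MHC class I molecules are the cell-surface display that CD8 T cells read. Each consists of a heavy chain, encoded in the mouse by H2-K, H2-D and many related genes of the H2 complex, and of beta-2 microglobulin, the light chain encoded by B2m. Peptides cut by the proteasome are carried into the endoplasmic reticulum by the TAP transporter, trimmed there by the aminopeptidase ERAP1 and loaded with the help of tapasin (Tapbp). NLRC5 is a transactivator of class I genes, and interferons are known to raise many genes of this pathway in macrophages.

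The 10 genes described here were chosen by symbol: B2m, the classical heavy chains H2-K1 and H2-D1, the nonclassical heavy chains H2-T22, H2-T23, H2-Q4 and H2-M3, the regulator Nlrc5, and Tapbp and Erap1. They are 10 of 40017 symbols in the deposited table and occupy 29 of its 42396 rows. These genes and the pathway list used below were chosen with earlier results of these data known. RNA came from bone marrow-derived macrophages grown for 5 days with macrophage colony-stimulating factor (M-CSF) at 20 ng/ml. The KO library has the genotype SPP1fl/fl-Lyz2-icre, in which Cre is made from the myeloid Lyz2 locus, and the WT library has the genotype SPP1fl/fl, so both carry the floxed Spp1 allele. Each genotype has 1 library. The sources used here give no strain, sex, age or number of animals behind a library. No spread between cultures is known, no test was possible, and every difference below is one between 2 libraries.

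Values are the authors' FPKM, fragments per kilobase of gene, relative to the size of the library. A difference is log2(FPKM + 1) in KO minus that in WT, a scale that understates the difference of genes with low values. A row is called higher or lower in KO where its mean over both libraries is at least 1 FPKM and the difference is at least 1 in size, a 2-fold difference on that scale. Spp1, the targeted gene, stood at 11.3 FPKM in the KO library and 4006 FPKM in the WT library. All 8 macrophage markers looked at were above 1 FPKM in both libraries, with a summed level of 17472 FPKM in KO, against 33385 FPKM in WT. Most of that sum is Lyz2, the locus that carries the Cre, which was lower in KO (-1.12), while Fcgr1 had a difference of 0.93 in the other direction. Of the 6 T and NK cell markers 5 were at 0 in both libraries, the exception being Klrb1c at 1.07 FPKM in KO, against 0.837 FPKM in WT. The summed level of the stromal markers was 1.94 FPKM in KO, against 5.50 FPKM in WT, that of the neutrophil markers 2.91 FPKM in KO, against 1.59 FPKM in WT, that of the B cell markers 0.970 FPKM in KO, against 0.509 FPKM in WT, and the dendritic cell and erythroid markers were all below 1 FPKM. Whether these cells have a part in the differences below was not tested. In bulk RNA, fewer cells of a type and less RNA per cell cannot be told apart.

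Class I promoters are known for a conserved module that NLRC5 and its partners occupy, whose X2 element resembles a cAMP response element and whose Y element is an inverted CCAAT box. It is shown here because the genes that carry it encode both chains of the same molecule. RefSeq promoter windows on GRCm38.p6 (250 bases before to 50 after the start) were matched for 9 of the 10 genes, all but Nlrc5. The core letters TGACG were searched 20 bases ahead of ATTGG, as the motif TGACGNNNNNNNNNNNNNNNNNNNNATTGG on both strands, a spacing chosen after the windows had been read. It was found in the windows of 4 of the 9 genes, B2m, H2-K1, H2-D1 and H2-M3, and in 31 of all 32851 windows (0.0944%). The stretch lies at chr2:122147594-122147638 (plus strand) for B2m, chr17:34000359-34000403 (minus strand) for H2-K1, chr17:35262978-35263022 (plus strand) for H2-D1 and chr17:37270173-37270217 (plus strand) for H2-M3. H2-Q4, at chr17:35379498-35379542 (plus strand), is aligned below on its ATTGG and has no exact match at the X2 place. Positions before the start follow the RefSeq starts, which can lie inside the GENCODE gene whose coordinates are given further on. For H2-D1, and for H2-T23, Erap1 and Tapbp below, they lie so far inside that the matches fall within that annotated gene. Capitals mark the matched letters.
B2m: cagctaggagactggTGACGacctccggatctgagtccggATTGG
H2-K1: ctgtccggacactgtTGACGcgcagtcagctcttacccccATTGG
H2-D1: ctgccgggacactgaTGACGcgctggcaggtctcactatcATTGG
H2-M3: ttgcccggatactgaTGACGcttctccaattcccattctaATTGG
H2-Q4: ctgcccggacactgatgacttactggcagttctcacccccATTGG

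The interferon-stimulated response element (ISRE), the site through which interferon-activated factors act, was searched as GAAANNGAAA on both strands. It was found in the windows of 4 of the 9 genes, B2m, H2-T22, H2-T23 and Erap1, and in 3.44% of all windows. In Erap1 it overlaps the RefSeq start. The other matches are shown in capitals, in the orientation of the gene, from chr2:122147538-122147567 (plus strand) for B2m, chr17:36032806-36032835 (minus strand) for H2-T23 and chr17:36042914-36042943 (minus strand) for H2-T22.
B2m: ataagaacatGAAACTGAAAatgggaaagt
H2-T23: atcctactgcTTTCTCTTTCataaagacac
H2-T22: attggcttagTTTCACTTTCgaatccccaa
The gamma-activated site, searched as TTCNNNGAA, which reads the same on both strands, was found in the window of H2-M3 alone of the 9 genes and in 8.30% of all windows. CCAAT on either strand, which every ATTGG above also matches, was found in 8 of the 9 genes and in 37.4% of all windows. Only exact matches were searched, so a window without a match can still hold a site with other letters. These matches describe the letters of the reference sequence and are no measure of binding.

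B2m, Nlrc5 and Erap1 have a single row each, and all 3 were higher in the KO library by less than 2-fold. B2m (ENSMUSG00000060802.8, chromosome 2, 122147686 to 122153083, plus strand) was by far the most abundant, at 3456 FPKM in KO, against 2578 FPKM in WT. Its difference was 0.42, or 1.34-fold, and by level it was number 11 of all rows in KO and number 12 in WT. Nlrc5 (ENSMUSG00000074151.13, chromosome 8, 94434356 to 94527272, plus strand) stood at 16.6 FPKM in KO, against 10.7 FPKM in WT, a difference of 0.59. Erap1 (ENSMUSG00000021583.7, chromosome 13, 74639568 to 74693201, plus strand) stood at 26.2 FPKM in KO, against 21.2 FPKM in WT, a difference of 0.30. None of these 3 rows passed the 2-fold rule. Among the 10179 rows of single-row symbols past 1 FPKM, 0.855% were higher and 0.196% lower in KO, and the 5th to 95th percentiles of the difference ran from -0.29 to 0.40. The differences of B2m and Nlrc5 lay above that range and that of Erap1 inside it.

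These 3 genes differ in how clean their values are. No stretch of 50 bases in the annotated B2m transcript (GENCODE M21, GRCm38) recurs in a transcript of another gene, and for Nlrc5 0.338% of such stretches do. For Erap1 10.7% do, all with Cast, the calpastatin gene on the opposite strand, which stood at 29.6 FPKM in KO, against 33.9 FPKM in WT. Whether the counting used strand is not given in the sources used here, and without strand, reads from Erap1 and Cast cannot be told apart where they overlap. The genes that overlap B2m and Nlrc5 on the opposite strand were low, with Patl2 at 0.105 FPKM in KO, against 0.0704 FPKM in WT, and 9330175E14Rik at 2.32 FPKM in KO, against 2.07 FPKM in WT. By the distance between log2(FPKM + 1) values over the 2 libraries, the single-row symbol nearest to Nlrc5 was Tapbpl, the gene of a tapasin-related protein, at 16.5 FPKM in KO, against 10.9 FPKM in WT (distance 0.03). The nearest to Erap1 was Acaa2, at 26.9 FPKM in KO, against 21.3 FPKM in WT (distance 0.04). Nothing lay as close to B2m, whose nearest symbol was Lgals3 (distance 0.52), and 2 libraries are too few to define a pattern.

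**Figure D1:**
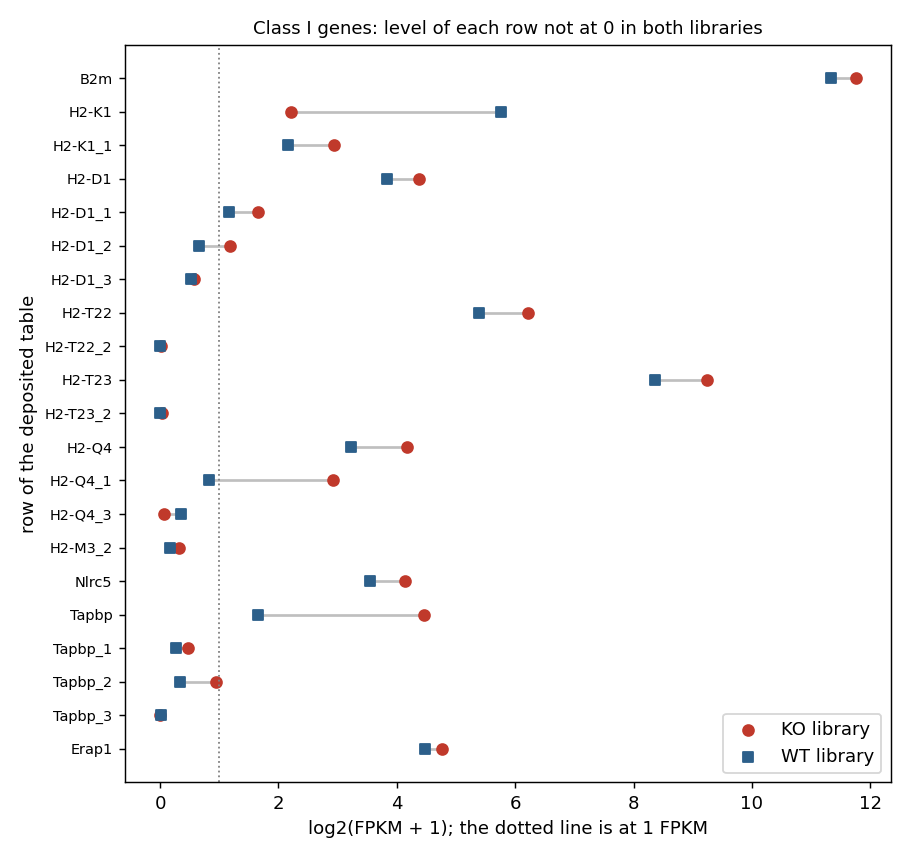
Level of each class I row that was above 0 in either library, as log2(FPKM + 1), with the KO library as red circles and the WT library as blue squares (1 library each). B2m and the first rows of H2-T23 and H2-T22 stand highest and lie to the right in KO, whereas the first row of H2-K1 lies far to the left in KO (3.63 FPKM) of its WT value (53.4 FPKM).

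The other 7 genes lie together on chromosome 17 and each has 3 or 4 rows in the table, 26 in all. From the start of Tapbp to the end of H2-M3 (chromosome 17, 33915899 to 37274484, GRCm38), 165 of 166 protein-coding symbols have several rows, and 135 have 4. In the rest of the genome 929 of 20486 do (4.53%). Which copy or locus a row stands for is not given in the sources used here. Of the 26 rows, 8 were at 0 in both libraries, 9 others stayed below a mean of 1 FPKM and 9 passed it. By the 2-fold rule 2 of these 9 rows were higher in KO, Tapbp and H2-Q4_1, and 1 was lower, H2-K1. H2-Q4_1 passed the filter only through its KO value of 6.61 FPKM, as it stood at 0.780 FPKM in WT. Of all 389 rows of several-row symbols past 1 FPKM, 12.6% were higher and 8.23% lower in KO, against 1.29% and 0.492% of all 10568 rows. Among the 42 such rows of protein-coding symbols in the chromosome 17 stretch, the class I rows included, 21.4% were higher and 9.52% lower. Large differences in both directions were thus common among the rows of this stretch, and a count of 2 and 1 out of 9 does not set the class I rows apart from them. Of the 9 several-row class I rows 8 were higher in direction, with a median difference of 0.83. Repeat rows of 1 gene are counted among them and are not separate genes. Among all 389 rows of several-row symbols 54.5% were higher in direction, with a median of 0.03. In the chromosome 17 stretch without the class I rows, 19 of 33 rows were, with a median of 0.06. The 3 single-row class I rows had a median of 0.42, beside -0.01 over single-row symbols, of which 47.1% were higher in direction.

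**Figure D2:**
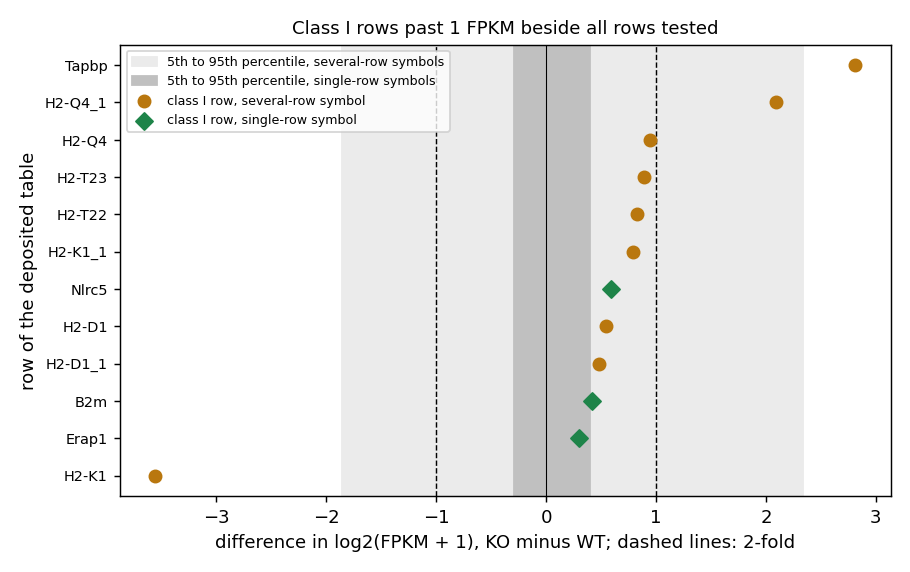
Difference in log2(FPKM + 1), KO minus WT, of the 12 class I rows past a mean of 1 FPKM, with orange circles for symbols that have several rows and green diamonds for those with 1. The shaded bands give the 5th to 95th percentile over all rows of several-row symbols (light, -1.86 to 2.34) and of single-row symbols (dark, -0.29 to 0.40). The first rows of H2-K1 (-3.55) and Tapbp (2.82) lie outside the light band.

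H2-K1 and H2-D1 encode the classical heavy chains K and D, which present peptides to CD8 T cells. The first row of H2-K1 (ENSMUSG00000061232.16, chromosome 17, 33996017 to 34000347, minus strand) stood at 3.63 FPKM in KO, against 53.4 FPKM in WT, 14.7-fold lower (-3.55). Its repeat row H2-K1_1 went the other way, at 6.70 FPKM in KO, against 3.46 FPKM in WT (0.79), and the rows H2-K1_2 and H2-K1_3 were at 0 in both libraries. In KO the first row held 35.2% of the symbol's summed FPKM, and in WT it held 93.9%. Summed over the 4 rows, H2-K1 stood at 10.3 FPKM in KO, against 56.8 FPKM in WT, 5.50-fold lower (-2.35), so the symbol was lower in KO by its sum as well. H2-D1 (ENSMUSG00000073411.11, chromosome 17, 35262730 to 35267499, plus strand) was higher in direction in all 4 rows. Its first row stood at 19.8 FPKM in KO, against 13.2 FPKM in WT (0.55). H2-D1_1 stood at 2.14 FPKM in KO, against 1.24 FPKM in WT (0.49). The rows H2-D1_2 and H2-D1_3 had means below 1 FPKM. The summed level was 23.7 FPKM in KO, against 15.4 FPKM in WT (0.58), and the first row held a similar share of it in both, 83.5% in KO and 85.5% in WT. By their sums H2-K1 was thus lower and H2-D1 higher in KO, the former through its first row alone. Large differences in both directions were common among rows of several-row symbols, as given above. Which locus each of these rows stands for is not known.

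The nonclassical chains H2-T22 and H2-T23 had nearly all of their FPKM in 1 row and were higher in KO, short of the 2-fold rule. H2-T23 encodes Qa-1, the ligand of the inhibitory NKG2A receptor of NK and CD8 T cells. Its first row (ENSMUSG00000067212.8, chromosome 17, 36029773 to 36032855, minus strand) stood at 606.9 FPKM in KO, against 326.9 FPKM in WT, 1.86-fold higher (0.89), the highest level of any heavy chain here. H2-T22, whose product is recognised by some gamma delta T cells, had a first row (ENSMUSG00000056116.18, chromosome 17, 36037128 to 36042747, minus strand) at 73.3 FPKM in KO, against 40.9 FPKM in WT, 1.79-fold higher (0.83). Their other rows were at most 0.0187 FPKM. H2-T22 shares much sequence with its relatives: 53.5% of the 50-base stretches of its annotated transcripts recur in another gene, most often H2-T10, whereas 14.5% do for H2-T23. For the classical chains the shares were 9.63% for H2-K1 and 12.8% for H2-D1.

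H2-Q4, which encodes the Qb-1 antigen, was higher in KO in its main rows. Its first row (ENSMUSG00000035929.11, chromosome 17, 35379617 to 35385290, plus strand) stood at 17.0 FPKM in KO, against 8.38 FPKM in WT (0.94). The row H2-Q4_1 stood at 6.61 FPKM in KO, against 0.780 FPKM in WT, 8.48-fold higher (2.10), and H2-Q4_3, below the filter, went the other way at 0.0484 FPKM in KO, against 0.271 FPKM in WT. The summed level of 23.7 FPKM in KO, against 9.43 FPKM in WT passed the 2-fold rule (1.24), which the first row alone did not. Of its 50-base stretches 36.4% recur in other genes. H2-M3, which presents N-formylated bacterial peptides, was near the floor. Of its 4 rows (ENSMUSG00000016206.6, chromosome 17, 37270220 to 37274484, plus strand) 3 were at 0 in both libraries, and H2-M3_2 stood at 0.242 FPKM in KO, against 0.123 FPKM in WT. Only 0.576% of its 50-base stretches recur elsewhere among the annotated genes, so sharing with other annotated genes is small for H2-M3. Sharing between the repeat rows of a symbol is not covered by these shares, for H2-M3 or for the other chromosome 17 genes.

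Tapbp encodes tapasin, which bridges the heavy chain to the TAP transporter. Its first row (ENSMUSG00000024308.15, chromosome 17, 33915899 to 33929292, plus strand) stood at 21.1 FPKM in KO, against 2.14 FPKM in WT, 9.85-fold higher (2.82). Tapbp_2 (0.932 FPKM in KO, against 0.256 FPKM in WT) and Tapbp_1 (0.387 FPKM in KO, against 0.208 FPKM in WT) were higher in direction, below the filter, and Tapbp_3 was at 0 in KO and 0.0160 FPKM in WT. Summed over its rows Tapbp stood at 22.5 FPKM in KO, against 2.62 FPKM in WT (2.69). Among the sums of the 10 genes, Tapbp and H2-Q4 were higher and H2-K1 lower by the 2-fold rule, beside 1.23% higher and 0.446% lower among all 10548 symbol sums past 1 FPKM. All of these called genes have several rows, a class in which 12.6% of rows were higher and 8.23% lower. The share among sums of several-row symbols alone was not computed, so these calls do not set the class I genes apart. Of the 50-base stretches of Tapbp 23.2% recur in other genes, mostly in Gm19412 on the opposite strand, whose rows were at 0 in both libraries.

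**Figure D3:**
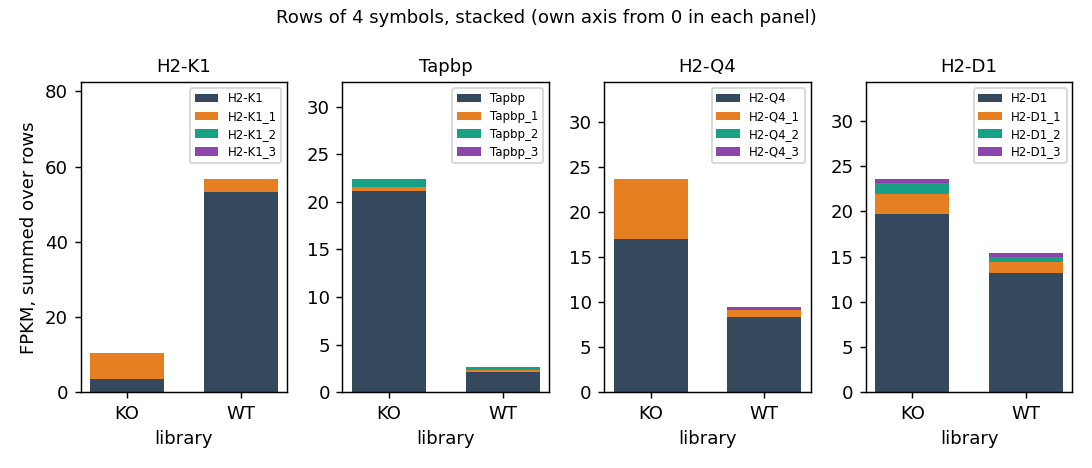
Summed FPKM of the 4 rows of H2-K1, Tapbp, H2-Q4 and H2-D1 in the KO library (left bar) and the WT library (right bar), each panel with its own axis from 0 and the rows stacked by colour. The first row makes up 35.2% of H2-K1 in KO and 93.9% in WT, whereas H2-D1 is made up alike in both.

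Set beside each other per length, the sums of B2m and then H2-T23 were highest in both libraries. In KO H2-T22 came next, the sums of Erap1, H2-Q4, H2-D1 and Tapbp lay together between 22.5 and 26.2 FPKM, and Nlrc5, H2-K1 and H2-M3 came last. In WT H2-K1 followed H2-T23, ahead of H2-T22 and Erap1, and Tapbp stood ahead of H2-M3 alone. With 1 library each, whether neighbours in these orders differ beyond their spread is not known. The 6 heavy chain genes summed to 738.2 FPKM in KO, against 449.6 FPKM in WT, a ratio of 1.64. H2-T23 alone made up 82.2% of that sum in KO and 72.7% in WT, and the classical chains 4.60% in KO and 16.1% in WT. The nonclassical sum, most of it H2-T23, was 704.2 FPKM in KO, against 377.4 FPKM in WT, while the classical sum was 34.0 FPKM in KO, against 72.3 FPKM in WT. The classical chains did not go the same way: H2-K1 was lower in KO (10.3 FPKM, against 56.8 FPKM in WT) and H2-D1 higher (23.7 FPKM, against 15.4 FPKM in WT). H2-T24, given below, is not among the 6 genes summed. B2m exceeded the heavy chain sum 4.68-fold in KO and 5.73-fold in WT. These sums take in what the table assigns to the 29 rows, and the levels of the chromosome 17 genes are uncertain because each has several rows.

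**Figure D4:**
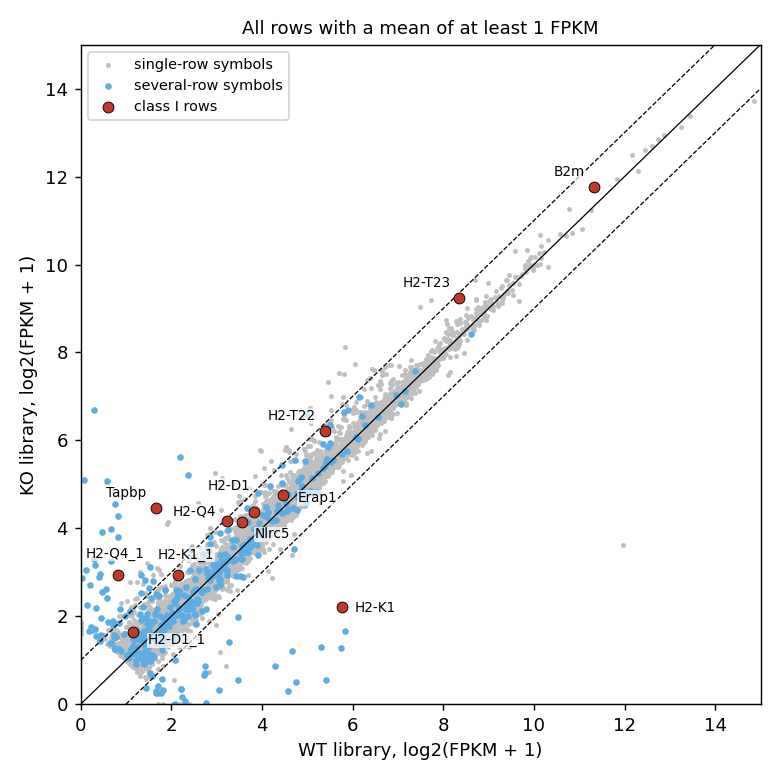
Every row past a mean of 1 FPKM, with log2(FPKM + 1) in the KO library on the vertical axis and in the WT library on the horizontal axis. Grey points are single-row symbols, blue points symbols with several rows and red points the class I rows, the solid line marks equality and the dashed lines 2-fold. H2-K1, Tapbp and H2-Q4_1 lie beyond the dashed lines, as do other symbols with several rows. B2m, Nlrc5 and Erap1 lie between the dashed lines, above the line of equality.

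Other genes of the pathway were taken from a list of 45, of which 44 are in the table and 27 had a highest row past 1 FPKM. Of these 27 genes 1 was higher and 0 lower by the 2-fold rule, and 21 were higher in direction, with a median difference of 0.09. Among all 10568 rows 1.29% were higher and 0.492% lower, 47.4% were higher in direction and the median was -0.01. The 24 genes with a single row had no call and a median of 0.07, with 18 higher in direction. The gene called was Nfya, a subunit of the NF-Y factor that binds CCAAT boxes, at 10.6 FPKM in KO, against 4.39 FPKM in WT (1.10), a symbol with 2 rows, a class of which 12.6% of rows were called higher.

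The proteasome regulators and the immunoproteasome subunit outside chromosome 17 were all higher in direction. Psmb10, an inducible catalytic subunit, stood at 90.4 FPKM in KO, against 55.2 FPKM in WT (0.70). The PA28 genes, whose products open the proteasome, stood at 162.6 FPKM in KO, against 114.4 FPKM in WT for Psme1 (0.50), and at 97.0 FPKM in KO, against 63.8 FPKM in WT for Psme2 (0.60). These differences, and that of Psmb5 below, lay above the 95th percentile of single-row rows. Psmb5, the constitutive subunit that Psmb8 replaces, stood at 45.3 FPKM in KO, against 33.0 FPKM in WT (0.44), and Psmb7, which Psmb10 replaces, at 80.5 FPKM in KO, against 68.2 FPKM in WT (0.23). Psmb6, with 2 rows, was below 1 FPKM in both libraries.

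Besides Tapbp, 4 of the 6 listed transporter and loading genes passed 1 FPKM, and none of the 4 was called, with Tapbpl (0.55) the largest difference. The chaperone genes Calr (478.3 FPKM in KO, against 441.6 FPKM in WT) and Canx (114.6 FPKM in KO, against 112.7 FPKM in WT) and the oxidoreductase gene Pdia3 (189.5 FPKM in KO, against 195.4 FPKM in WT) had differences between -0.04 and 0.11. Lnpep, a second peptide-trimming enzyme, stood at 30.4 FPKM in KO, against 26.9 FPKM in WT. Tap1, Tap2, Psmb8 and Psmb9, which lie side by side in the chromosome 17 stretch, had 4 rows each, none of which reached 1 FPKM in either library. Summed over its rows, Psmb8 stood at 1.06 FPKM in KO, against 0.432 FPKM in WT. The highest rows were 0.247 FPKM in KO, against 0.0832 FPKM in WT for Tap1, 0.324 FPKM in KO, against 0.141 FPKM in WT for Tap2, 0.941 FPKM in KO, against 0.288 FPKM in WT for Psmb8, and 0.308 FPKM in KO, against 0.141 FPKM in WT for Psmb9. Of the 165 several-row protein-coding symbols of that stretch, 129 (78.2%) had no row past a mean of 1 FPKM. In the rest of the genome 637 of the 929 several-row protein-coding symbols (68.6%) had none. Low values were thus frequent among several-row symbols in and outside the stretch. These shares take in symbols whether or not macrophages express them, and the share for single-row symbols was not computed. Whether the low values of Tap1, Tap2, Psmb8 and Psmb9 go with their repeat rows was not tested.

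Among the regulators, Irf1, an interferon-induced transcription factor gene, stood at 41.7 FPKM in KO, against 33.2 FPKM in WT (0.32), above Irf2 at 25.0 FPKM in KO, against 26.0 FPKM in WT (-0.05). Of the partners with which NLRC5 assembles on the X and Y elements, Nfya (1.10) was called higher, and Rfx5, Rfxap, Rfxank, Creb1, Nfyb and Nfyc had differences between -0.06 and 0.09. Ciita, the class II counterpart of Nlrc5, had a difference of 0.03, next to 0.59 for Nlrc5. Of the further class I and class I-like chains, 7 of the 19 in the table passed 1 FPKM. The largest difference was that of H2-T24, with 3 rows, whose highest row stood at 99.4 FPKM in KO, against 54.8 FPKM in WT (0.85), next to 0.83 for H2-T22 and 0.89 for H2-T23. Fcgrt, the neonatal Fc receptor chain that also pairs with B2m, stood at 38.7 FPKM in KO, against 45.1 FPKM in WT (-0.21). Procr (0.14) and H2-T10 (0.10), a symbol with 2 rows, completed the 4 largest.

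**Figure D5:**
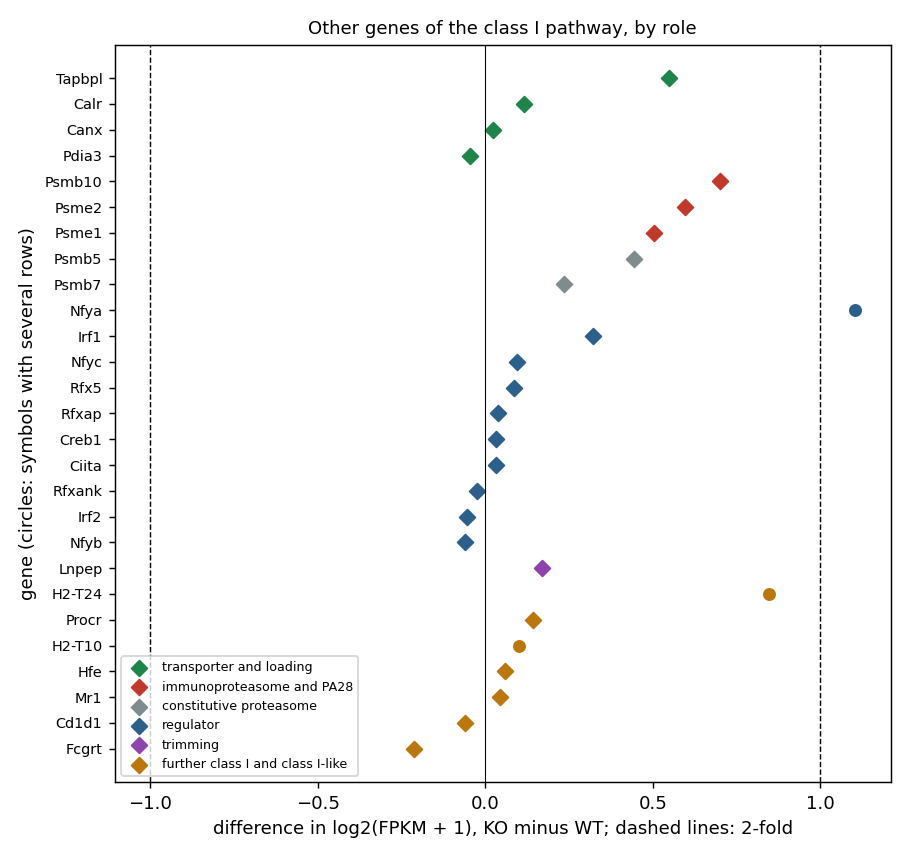
Difference in log2(FPKM + 1), KO minus WT, of the 27 other pathway genes past a mean of 1 FPKM, grouped by role in colour, with circles for symbols that have several rows and diamonds for those with 1. Nfya (1.10) alone lies past the dashed 2-fold line, followed by H2-T24 (0.85) and Psmb10 (0.70).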

How the data were processed

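RNA was measured in 1 KO and 1 WT library. The values used are FPKM in a table deposited by the authors. RSEM, DESeq2 and the build mm10 are named, without roles or versions, in the submitters' processing notes; the aligner, annotation and filters were not given in the sources used here. It has 2 further columns of values, headed WT-CM and KO-CM, which match no sample and were not used. Of its 42396 rows, 2379 are numbered repeats of a symbol, and 1766 symbols have several rows. Each row was read on its own, and sums over rows were computed beside it. Differences were log2(FPKM + 1), KO minus WT, with a mean of at least 1 FPKM and a 2-fold rule of size. The rule was tried on simulated data with higher values, changes larger than 2-fold and sampling noise alone. That trial does not cover the spread between cultures, repeat rows or values near the filter.

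Total depth is not known. Among 2833 single-row symbols above 0 in both libraries with a sum below 0.3 FPKM, the most common ratio of KO to WT values was 1.308 to 3 decimals (396 symbols), the ratio of WT to KO depth if these are equal numbers of reads. The next was 0.654 (232 symbols). Without counts, no interval or floor is given.

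Members and lists were chosen with earlier results of these data known. Named genes were all 10 members, all loading, proteasome, trimming and regulator genes of the list, and the 4 further class I chains with the largest differences. A regulator planned for the list is left out of it and not reported here. Shared sequence was computed over all 50-base stretches of GENCODE M21 transcripts, on both strands. Python 3.11.15, pandas 2.3.3 and NumPy 2.4.6 were used.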

Additional observations from a re-analysis of the deposited data

How the results depend on the processing

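No paired analysis was possible because each genotype has 1 library, and for the same reason no library could be left out. Of the counts of calls recomputed under other settings, 33 were above 0 and within 1.5 times the reported value, 41 were 0 as reported and 0 again, and 10 moved further. With a 1.5-fold threshold the rows higher in KO numbered 6 for class I symbols with several rows, against 2 as reported, and 1 for those with a single row (Nlrc5), against 0. That threshold also gave 5 class I sums higher in KO, against 2, and 2 several-row and 2 single-row pathway genes, against 1 and 0. With a mean of at least 5 FPKM, 1 several-row class I row was higher, since H2-Q4_1 fell below the filter. With a 3-fold threshold, or with a pseudocount of 5 FPKM, 1 class I sum (Tapbp) and 0 several-row pathway genes were higher. H2-Q4 is the gene whose call depends most on the choice: its first row differed by 0.94, by 1.01 with a pseudocount of 0.1 FPKM, and by 1.24 when its rows were summed. All 57 differences of rows and symbols recomputed under other pseudocounts, scalings, centring or summing kept their sign. A change of pseudocount cannot alter a sign, and scaling and centring moved the values little. This count is therefore no measure of how firm the differences are. The values of the 7 chromosome 17 genes are limited by the unexplained repeat rows, and rows below 1 FPKM by a depth that is not known.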
